A study of Caenorhabditis elegans with 2 samples.

Results

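Binding of the nuclear hormone receptor NHR-86 was examined at 6 C. elegans genes of neuronal signalling and secretion, egl-30, rsbp-1, unc-17, aex-5, aex-6 and olrn-1. They were chosen by name from the authors' table of bound genes with binding values already known, so their presence in that table and the size of their peaks are a description and carry no test. The table holds 189 genes and the peak list 220 peaks, of which 6 were joined to these genes. The animals exposed overnight at 20 °C to 70 µM of the small molecule R24, an activator of immune genes, gave 1 library, and animals given the solvent, DMSO at 1%, gave another. All animals were of the strain VL648, labelled as L4, which carries the allele unc-119(ed3) and the integrated transgene wwIs22. wwIs22 holds the nhr-86 open reading frame fused to GFP under the nhr-86 promoter, Pnhr-86, and a working copy of the gene, unc-119(+). Chromatin of whole animals was precipitated with an antibody against GFP.

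Per the study, the receptor is found in nuclei of intestinal cells, whereas several of the genes described here are best known from neurons. Chromatin was not separated by tissue, so these data do not tell in which cells a peak arose. No input library and no library of animals without the tag was analysed here. The R24 library held 879943 tags (sequenced fragment ends, at most 1 kept per position and strand) and the DMSO library 2047658, which the authors scaled to the R24 depth. With 1 library per group no difference has a replicate check.

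The 6 genes belong to several processes of neurons and secretory cells. EGL-30 is the alpha subunit of the heterotrimeric G protein Gq, which in worms activates phospholipase C and promotes release of acetylcholine from motor neurons. RGS proteins shorten the active state of G protein alpha subunits, and RSBP-1 holds some, not all, of these RGS proteins at membranes. UNC-17 loads acetylcholine into synaptic vesicles. AEX-5, a proprotein convertase that cuts peptide precursors, and AEX-6, a Rab27-type small GTPase of secretory vesicles, are needed for the defecation motor programme, the rhythmic muscle contractions set off from the intestine. OLRN-1 is a membrane protein needed for the left-right difference between the pair of AWC olfactory neurons.

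Each peak is described by its pileup, the number of R24 tags that cover its summit when every tag is extended to the fragment length of 296 bp, and by the local background, the number expected there from the scaled DMSO library. The fold enrichment is pileup + 1 over background + 1, R24 over DMSO. Across all 220 peaks the median pileup was 23 tags, the median background 5.16 tags and the median fold 3.896. The pileup in R24 animals and the background in DMSO animals lay between 0.518 and 2.17 times these medians at egl-30, rsbp-1, unc-17 and aex-6. They were far higher at olrn-1 and aex-5, which had the highest and the next highest value of each among all peaks. The listed folds of the 6 genes ran from 2.77 to 4.63, with a median of 3.47. The fold of olrn-1 among them, 3.58, was measured close to the highest pileup that the authors' processing can give. An allowance for that ceiling, chosen after seeing the data, took it to 7.44, a point value without an interval.

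**Figure D1:**
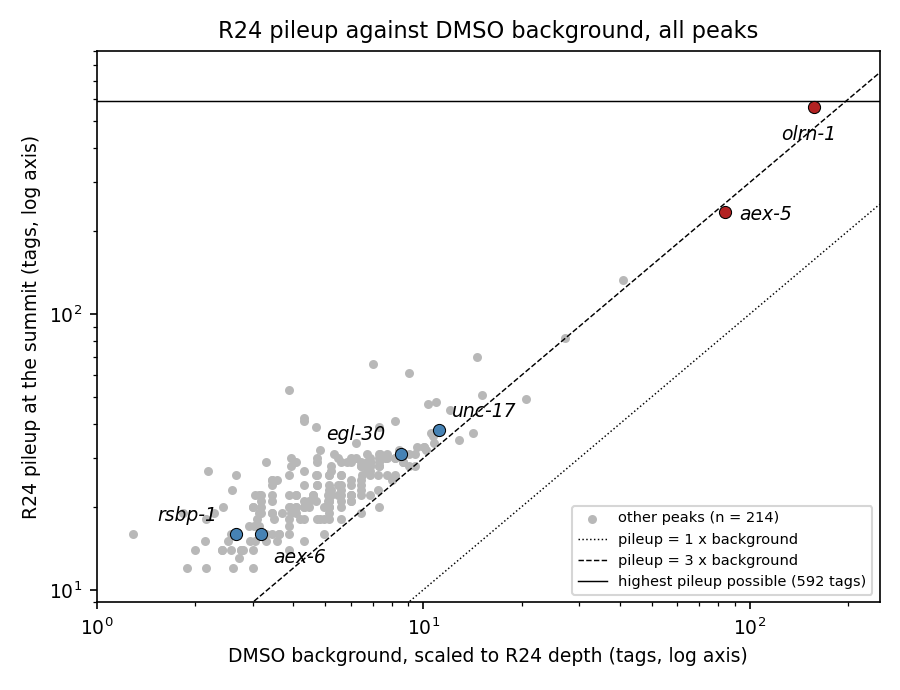
R24 pileup at the summit (tags, log axis) against the scaled DMSO background (tags, log axis) for all 220 peaks, with peaks of high background in red, the other members in blue and the remaining 214 peaks in grey. olrn-1 and aex-5 lie far to the upper right at backgrounds of 157 and 83.8 tags, close to the line of pileup 3 times the background, and olrn-1 lies just under the highest possible pileup of 592 tags.

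No member reached a fold of 5, which 17.3% of all peaks did. At that share about 1 of 6 peaks would, so nothing is read from this count. Fold was below the median of all peaks at 4 members, egl-30, unc-17, aex-5 and olrn-1, and above it at rsbp-1 and aex-6.

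The deposited values also held the DMSO tags behind each background. The background of a peak is the highest of the scaled tag densities in windows of 296 bp, 1 kb and 10 kb around the summit. Division by the worth of 1 tag gave a whole number of DMSO tags for all 220 peaks, to within 0.000461 of a tag where the rounding of the fold allows up to 0.000880, in the 296 bp window for 108, the 1 kb window for 90 and the 10 kb window for 22. unc-17, aex-5 and olrn-1 were among those set by the 296 bp window, so DMSO tags there were at least as dense over the summit as over the surrounding 1 kb. egl-30, rsbp-1 and aex-6 were set by the 1 kb window, so DMSO tags were no denser at their summits than around them. For these 3 a 10 kb window with 10 times as many tags would give an equal value, so the window is the shortest that fits. From both tag numbers the plain ratio of R24 to DMSO, with nothing added, was computed with an exact Clopper-Pearson interval at 95%. This interval and the exact Poisson interval of a pileup cover counting error only, and leave out that the summit was picked as the highest R24 point and the background as the highest window.

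At egl-30 (M01D7.7), the Gq alpha subunit gene, the peak lay at chromosome I, 1836861 to 1837171 (ce10, as are all positions). The R24 pileup was 31 tags (exact Poisson 95% interval 21.1 to 44.0), against a DMSO background of 8.52 tags that rested on 67 tags in 1 kb. The fold was 3.36, below that of 169 other peaks, and the −log10 q was 5.56. R24 tags therefore stood above the DMSO level by 22.5 tags, and no more than 19 DMSO tags before scaling lay in the 296 bp around the summit. The ratio of 3.64 had an interval of 2.30 to 5.65. In the RefSeq gene list egl-30 overlaps C53H9.4, which was not in the authors' table. To which of these genes the peak belongs was not tested.

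rsbp-1 (T06D10.1), whose product anchors some regulators of G protein signalling, had the highest listed fold of the 6 genes, 4.63, from few tags. With the allowance for the ceiling at olrn-1 it came after that gene, by a point value without an interval. Its peak lay at chromosome I, 9076234 to 9076529. The R24 pileup was 16 tags (9.15 to 25.98), against a DMSO background of 2.67 tags that rested on 21 tags in 1 kb. This background was lower than at 202 of the 220 peaks, and the peak had the shortest length in the list, 296 bp, equal to the fragment length and shared by 14 peaks. The ratio of 5.99 had the widest interval of the members, 2.92 to 12.05. Its lower bound lay under the ratio of every other member apart from aex-5. T06D10.8 overlaps rsbp-1 in the RefSeq gene list and was not in the authors' table. The peak was not assigned between these genes by position.

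The peak of unc-17, the vesicular acetylcholine transporter gene, lay at chromosome IV, 3622988 to 3623336. The R24 pileup was 38 tags (26.9 to 52.2), against a DMSO background of 11.2 tags, or 26 tags in the 296 bp window. The fold was 3.20 and the −log10 q 6.39. The background was the 11th highest of all peaks, 2.17 times their median, and the ratio of 3.40 had an interval of 2.01 to 5.83. In the RefSeq gene list unc-17 overlaps cha-1, the gene for choline acetyltransferase, which makes acetylcholine. cha-1 was not in the authors' table, and a peak in the shared stretch cannot be told apart between both genes.

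For aex-6 (Y87G2A.4), the Rab27-type gene, the value in the authors' table fitted 3 peaks that had the same pileup, background and fold. The peak at chromosome I, 13544767 to 13545106, was taken because it alone lay between the peaks of the neighbouring joined genes Y87G2A.2 and hpo-13. The R24 pileup was 16 tags (9.15 to 25.98), against a DMSO background of 3.18 tags that rested on 25 tags in 1 kb. The fold was 4.07, the −log10 q 3.92, the lowest of the members, and the ratio of 5.03 had an interval of 2.51 to 9.80. Any of the 3 peaks would give these same values. aex-6 and rsbp-1 thus had equal pileups and differed by 4 DMSO tags.

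aex-6 was also the only member with a further peak within 10 kb, as 53 of all 220 peaks had. A peak of similar size lay 1267 bp from its summit, at chromosome I, 13546042 to 13546371, with an R24 pileup of 16 tags over a DMSO background of 2.58 tags and a fold of 4.75. No gene of the authors' table was joined to it, and 935 bp separated it from the aex-6 peak. On the other side, 7.16 kb away, the peak of Y87G2A.2 had 32 tags over 8.40 and a fold of 3.51. Within 100 kb of aex-6 there were 4 other peaks in all, the remaining ones joined to ndx-8 (fold 4.84) and Y48G10A.3 (fold 4.58). All these neighbours of aex-6 hold only for the peak that was taken by gene order among equal peaks. egl-30 and olrn-1 had 1 other peak each within 100 kb, at 74.7 and 63.7 kb, and aex-5, rsbp-1 and unc-17 had none, with their nearest peaks 136, 305 and 319 kb away.

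**Figure D2:**
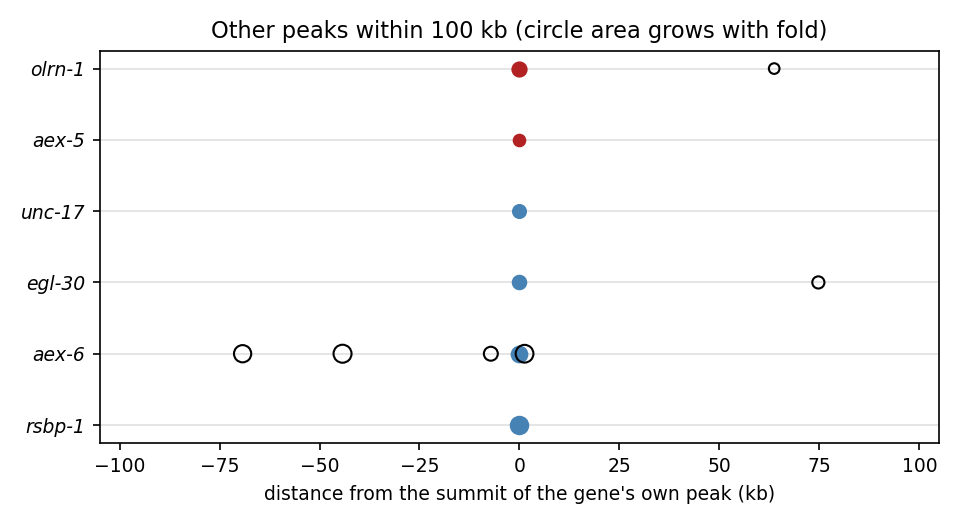
Distance in kb from the summit of each gene's own peak (filled circle) to other peaks within 100 kb on its chromosome (open circles), with circle area growing with fold. aex-6 has 4 neighbours, the closest at 1267 bp, while egl-30 and olrn-1 have 1 each and the other 3 genes none. Those of aex-6 hold only for the peak that was taken by gene order among equal peaks.

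The peaks of olrn-1 and aex-5 stood apart by their DMSO background, the only ones of the 220 with over 10 times the median. At olrn-1 (C02C6.2), chromosome X, 15543095 to 15544642, the R24 pileup was 565 tags (519 to 614), against a DMSO background of 157 tags, 30.5 times the median, or 366 tags in the 296 bp window. At aex-5 (F32A7.6), chromosome I, 14855325 to 14856350, the R24 pileup was 234 tags (205 to 266), against a DMSO background of 83.8 tags, 16.2 times the median, or 195 tags in the 296 bp window. The member of next highest background, unc-17, had 11.2 tags. A large signal was therefore present at olrn-1 and aex-5 without R24. Both genes were joined to these peaks through the decimals of the −log10 q alone, since the whole part of their table value differed, so this assignment is less firm than that of the others. Both peaks were long, 1548 bp at olrn-1 and 1026 bp at aex-5, against a median of 359 bp over all peaks.

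olrn-1 had a listed fold of 3.58, with a ratio of 3.59 (interval 3.14 to 4.11). Its pileup lay near the ceiling, and the fold of 7.44 under an allowance for it lies far outside this interval, which covers counting error alone. aex-5 had a fold of 2.77, with a ratio of 2.79 (2.30 to 3.39). The fold of aex-5 was among the 6 lowest of all 220 peaks. Their −log10 q of 131 and 36.1 ranked 1st and 3rd in the list, since many tags give a small q at a given fold. The members in order of the computed ratio were rsbp-1, aex-6, egl-30, olrn-1, unc-17 and aex-5. Neighbours in this order had overlapping intervals throughout. By listed fold olrn-1, at 3.58, came before egl-30, at 3.36. The place of olrn-1 holds only without the allowance. Under it the olrn-1 fold of 7.44, a point value without an interval, was above the 4.67 of rsbp-1 and the 4.10 of aex-6.

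**Figure D3:**
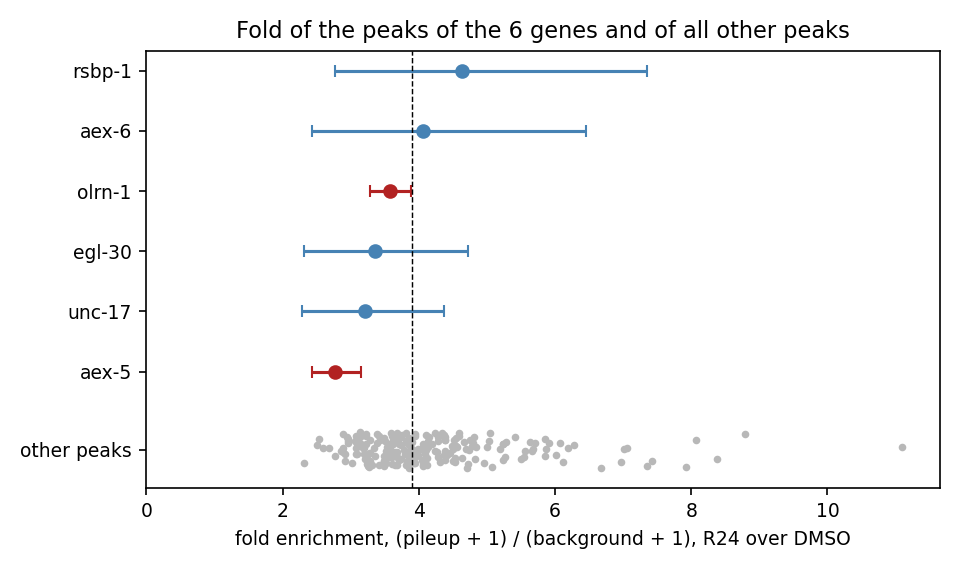
Fold enrichment, R24 over DMSO, of the peak of each gene, with bars from the exact Poisson 95% bounds of the R24 pileup at a fixed DMSO background, above the folds of the other 214 peaks (grey). The dashed line is the median of all peaks, 3.896. olrn-1 and aex-5 (red) have the shortest bars, which cover counting error alone and not the ceiling that olrn-1 lies close to, and rsbp-1 and aex-6 lie to the right of the line with the longest.

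The 1 tag kept per position and strand sets a ceiling of 592 tags over any position. At olrn-1 the R24 pileup reached 95.4% of this ceiling and the DMSO tags 61.8%, so the upper Poisson bound of 614 tags lies beyond what could be measured. At aex-5 the shares were 39.5% in R24 and 32.9% in DMSO. The other 4 members were far from it, with R24 pileups of 2.70% to 6.42% of the ceiling. If tags fell evenly over positions before repeats were removed, the fold of olrn-1 would be 7.44 in place of 3.58, while the other 5 members would move by less than their counting error. The even spread is an assumption that these files do not test. So close to the ceiling a few tags change the 7.44 strongly. The upper Poisson bound, beyond the ceiling, gives it no upper limit.

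The high background of olrn-1 and aex-5 can be set beside that of nhr-86 itself, which the strain also carries in the transgene. At nhr-86 the R24 pileup was 133 tags, against a DMSO background of 40.8 tags, or 95 tags in the 296 bp window, and a fold of 3.20. This was the highest background after those of olrn-1 and aex-5. The genes adjoining aex-5 in gene order are metl-17 and unc-54, and maph-1.1 and str-245 overlap it. None of these was in the authors' table. unc-54 is the body wall muscle myosin heavy chain gene, and its 3′ end is part of many C. elegans GFP vectors. Whether wwIs22 holds it is not given in the sources used here. The sequence of the transgene was not analysed, and its part, or that of the copy number of any locus, in the high backgrounds was not tested. For olrn-1 the overlapping genes of the RefSeq list were C02C6.14 and lron-3, and neither was in the authors' table.

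**Figure D4:**
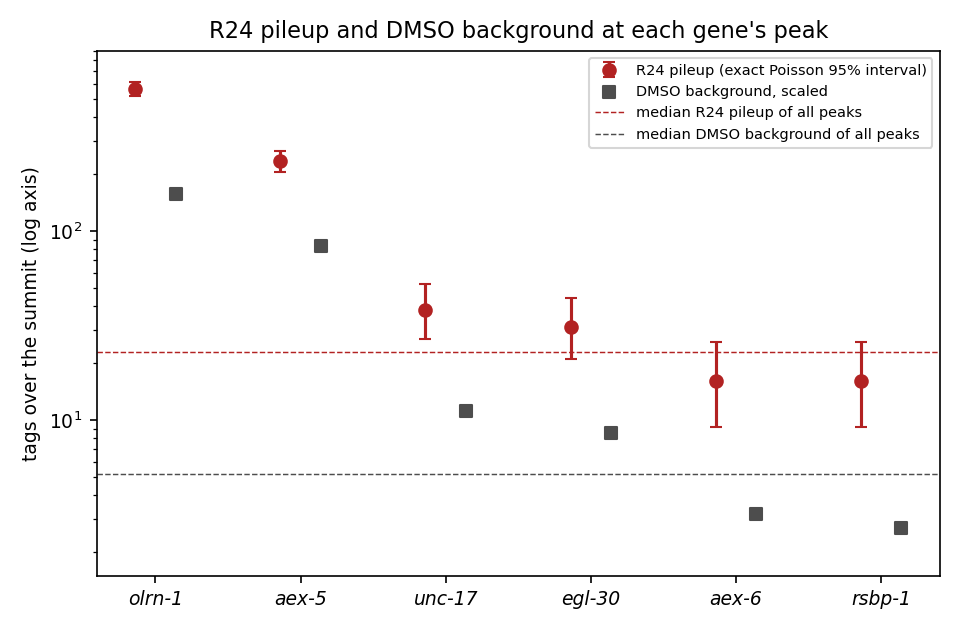
Tags over the summit (log axis) at each gene's peak, R24 pileup (red circles, exact Poisson 95% intervals) to the left of the scaled DMSO background (grey squares), with dashed lines at the medians of all 220 peaks, 23 and 5.16 tags. Each R24 interval lies above its DMSO background, which follows from how the peaks were called and is no result about these genes. DMSO backgrounds at olrn-1 and aex-5 exceed the R24 pileups of the other 4 genes.

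By pileup and background, unc-17, egl-30, aex-6 and rsbp-1 had close counterparts among the other 145 joined genes. The peak nearest to unc-17 was that of T28F4.7 (38 tags over 11.1), and the nearest to egl-30 was that of Y87G2A.2 (32 over 8.40). chd-1, a chromatin remodeller gene, had the same values as aex-6. Its peak was one of the 3 that fitted the table value of aex-6, told apart by gene order alone. alh-5, an aldehyde dehydrogenase gene, was nearest to rsbp-1 (15 over 2.52). All 4 distances were at most 0.126 on the log2 scale of both measures together. olrn-1 and aex-5 had no such counterpart, as the nearest peak to each was that of nhr-86 at a distance of 2.85 and 1.32.

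The wider pathways gave no further listed gene. Of 27 annotated genes of Gq and Go signalling, egl-30 and rsbp-1 were listed in the authors' table. The genes not listed include goa-1 (Go alpha), egl-8 (phospholipase C), and eat-16 and egl-10, the RGS genes. Of 24 genes of acetylcholine synthesis, transport and reception unc-17 was listed. Of 33 genes of vesicle secretion and the defecation motor programme aex-5 and aex-6 were listed, and aex-1, aex-2, aex-3, aex-4 and nlp-40, the gene of a peptide that AEX-5 processes, were not. Of 16 genes of AWC asymmetry olrn-1 was listed. The members were in these lists because they were listed. Among the other 93 genes of the lists 0 were in the table, which holds 0.388% of all 46926 annotated genes. Of the 19983 protein-coding genes it holds 0.766%. At either share fewer than 1 of the 93 would be listed, so the lists cannot show that these pathways were bound less often than other genes.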

How the data were processed

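Per the labels and methods, adaptors were clipped and reads aligned to ce10 with BWA MEM (0.7.15), sorted with Picard and filtered on mapping quality with SAMtools. The authors called peaks with MACS (2.1.1.20160309 per the file headers), R24 library as treatment and DMSO library as control, at a q cutoff of 0.05, with a fragment model and the human genome size (2.7 Gb, against 90 Mb for the worm). The methods give other settings, no model and a p threshold. The deposited peak list gives pileup (signal), fold enrichment (a ratio), −log10 p and −log10 q, whose column names were lost, so they were identified by recomputing −log10 p (largest deviation 0.000322).

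The authors' deposited gene table gives no positions, and its column headed fold enrichment was taken as a score. All 189 scores were 5-decimal numbers times 1.325. After division, genes were joined to peaks whose −log10 q or fold was equal (tolerance 6e-06), or whose −log10 q had the same decimals, on the gene's chromosome and in gene order. Equal peaks were settled by gene order. This joined 151 genes. Of the members 4 were joined through the full −log10 q, and aex-5 and olrn-1 through decimals alone. The table's own −log10 p and −log10 q columns were not used. Per-sample columns of other series numbered 0.

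Names, chromosomes and gene order came from a RefSeq gene list of WBcel235, which held 182 of the 189 genes. Since that build is not ce10, positions of peaks within genes are not given. Members, lists and alternatives were chosen with earlier results of these data known. Named genes were the members, the joined gene nearest to each in log2 pileup and log2 background, and listed genes of the lists. Genes adjoining or overlapping a member, nhr-86 and the unlisted pathway genes were named after their values were seen. Background recovery and joins were tested on simulated data. There every peak had its own gene and a value drawn at random. Joins among equal peaks, as for aex-6, and peaks without a table gene were therefore not tested. Python 3.11.15, pandas 2.3.3 and scipy 1.17.1 were used.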

Additional observations from a re-analysis of the deposited data

How the results depend on the processing

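Of 41 alternatives, 12 set the pileup at a bound of its own interval and so could not leave it. Of the other 29, 24 left the result as it was. For a fold this meant within its counting error, and for a count within 1.5 times. For the median fold of the members it meant a shift below the standard deviation of their folds. Among these 24 are the folds of 5 members under the worm genome size, which could not change either. Also among them, the join by full values only, with 4 of 6 members, lies at the limit of 1.5 times. Of the 29, 7 were chosen after seeing the data. An allowance for 1 tag per position, one of these 7, took the fold of olrn-1 to 7.44. A fold of at least 5 left 0 members in place of 6. The number of members with another peak near was 0 within 1 kb and 3 within 100 kb, against 1 within 10 kb. Only protein-coding genes as background gave 0.766% of genes listed. The worm genome size moved the fold of rsbp-1 alone, to 4.37, as the other 5 backgrounds lie above its floor. With full values only, 4 of 6 members were joined, without aex-5 and olrn-1, and with 1 matching peak only 5, without aex-6. Without olrn-1 and aex-5 the median fold of the members was 3.71. Depth limits rsbp-1 and aex-6 most, at 16 R24 tags each. No paired analysis was possible because each group held 1 library, and no library could be left out.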

Other observations

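After olrn-1, aex-5 and nhr-86, the highest DMSO backgrounds were those of the peak of T08A9.16 (chromosome X, 7325421 to 7327423), with an R24 pileup of 82 tags over a DMSO background of 27.1 tags and a fold of 2.96, and of a peak with no joined gene (chromosome IV, 5374242 to 5374647), with 49 tags over 20.6. That peak had the lowest fold of the whole list, 2.31. The 5 peaks with a background over 3 times the median all had listed folds below the median of all peaks. With the allowance for 1 tag per position that of olrn-1 was above it, at a point value of 7.44. Fold has the background in its denominator, and a high background lets a low fold pass the q cutoff. The part of this in the low listed folds at these peaks was not tested, so nothing is read from them.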
